A study of Mus musculus with 6 samples.

Results

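Adrenergic receptors, the cell surface receptors for noradrenaline and adrenaline, were described in mouse skin through 8 genes chosen by symbol: the alpha genes Adra1a, Adra1b, Adra1d, Adra2a, Adra2b and Adra2c, and the beta genes Adrb1 and Adrb3. They are 8 of the 54146 gene IDs measured, and each was found under its Ensembl ID. The skin came from mice under chronic restraint stress (CRS, 3 libraries) and from control mice (CON, 3 libraries), sampled when the stress had lasted 12 weeks. Each group is given as 3 mice, and a library is read below as 1 mouse. Chronic restraint, in which an animal is confined repeatedly, is a rodent model of psychological stress. No label gives the strain, sex or age of the mice, or where on the body the skin was taken. The comparison asks whether stress moved the transcript levels of the receptors through which stress hormones and sympathetic nerves act on skin.

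Adrenergic receptors span the membrane and signal through G proteins. Beta receptors couple to Gs and raise cyclic AMP. Alpha receptors of the first class couple to Gq and release calcium, and those of the second class couple to Gi and lower cyclic AMP. In skin and its fat layer, the alpha receptors are best known for constricting vessels and contracting the arrector pili muscle, and the beta-3 receptor for fat breakdown in adipocytes.

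Levels are in FPKM, the fragments of a gene scaled to its exon length and to the depth of the library. Genes can then be set side by side, though their order depends on the exon length used. Of the 8 genes, Adrb3 was highest at 2.21 ± 1.10 FPKM over the 6 libraries (SD), followed by Adrb1 at 0.499 ± 0.217 FPKM and Adra2a at 0.313 ± 0.158 FPKM. Adra1a was at 0.202 ± 0.0743, Adra1b at 0.195 ± 0.0661, Adra2b at 0.190 ± 0.181 and Adra2c at 0.129 ± 0.0705 FPKM. Adra1d, at 0.0817 ± 0.104 FPKM, was the 1 gene near zero, defined as a mean under 0.1 FPKM. In limma, 0 of the 7 other genes passed an adjusted p under 0.05 for CRS against CON, where 0% of all 28389 genes tested passed as higher and 0% as lower. CRS and CON values overlapped in all 8 genes, and 6.84% of all genes tested had groups that did not overlap.

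The deposited values allowed the fragments behind each level to be recovered. Depth was 13.3 to 25.7 M fragments per library, and Adrb3 rested on 54 to 276 fragments per library. The other 7 genes rested on 0 to 56 fragments, so that their values carry wide counting errors. Intervals given below are exact 95% Poisson intervals of the fragments, scaled to FPKM, and cover counting error only.

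Several libraries stood apart. CON replicate 1 held 15.3% of its fragments in mitochondrial transcripts, against 4.19% or less in the other 5, and its skeletal muscle actin gene Acta1 stood at 3335 FPKM, against 135.9 to 1002 FPKM elsewhere. It also held 2.80 FPKM of the female transcript Xist beside 22.5 FPKM of the Y-linked gene Ddx3y. Elsewhere Xist was at 0.0221 to 0.168 FPKM and Ddx3y at 8.68 to 32.7 FPKM. Whether CON replicate 1 holds 1 mouse alone is thus in doubt. All 5 keratinocyte markers were detected in every library. Krt14 was at 1017 to 1198 FPKM in CRS and 769 to 980 FPKM in CON, Krt5 at 572 to 1214 FPKM in CRS and 545 to 932 FPKM in CON, and Trp63 at 12.2 to 42.6 FPKM in CRS and 21.9 to 37.4 FPKM in CON. Among the 1093 olfactory receptor genes, which skin barely uses, the mean was 0.0846, 0.00573 and 0.0219 FPKM in CRS replicates 1 to 3. In CON replicates 1 to 3 it was 0.0452, 0.0243 and 0.0422 FPKM. CRS replicate 1 was thus highest and CRS replicate 2 lowest in this low-level signal, a 14.8-fold range.

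Promoter sequence shows how the 2 most abundant members with an entry begin. RefSeq (GRCm38.p6) held promoters for 5 of the 8 genes, each running from 250 bases before to 50 bases after the start. The Adra2a promoter lies at chr19:54045009-54045308 on the + strand and the Adrb1 promoter at chr19:56721867-56722166 on the + strand. Capitals mark TATAAA, the GC box GGGCGG and TGACG, the core of the cyclic AMP response element, each read on both strands.
Adra2a: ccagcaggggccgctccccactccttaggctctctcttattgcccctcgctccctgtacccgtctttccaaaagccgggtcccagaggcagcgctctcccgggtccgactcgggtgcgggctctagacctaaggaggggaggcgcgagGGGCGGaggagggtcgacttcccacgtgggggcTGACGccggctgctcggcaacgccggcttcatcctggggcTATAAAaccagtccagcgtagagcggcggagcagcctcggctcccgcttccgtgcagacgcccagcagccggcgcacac
Adrb1: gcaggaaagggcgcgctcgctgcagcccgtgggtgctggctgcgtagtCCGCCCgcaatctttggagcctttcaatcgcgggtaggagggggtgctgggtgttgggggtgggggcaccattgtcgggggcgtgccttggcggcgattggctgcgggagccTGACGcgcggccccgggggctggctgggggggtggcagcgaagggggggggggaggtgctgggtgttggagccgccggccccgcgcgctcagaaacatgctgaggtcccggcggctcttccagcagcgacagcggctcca

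Both promoters held 28 CpG dinucleotides, against a median of 7 over 32851 promoters of the same length. The Adra2a promoter held 1 TATAAA, beginning 29 bases before the start, and 1 TGACG. The Adrb1 promoter also held 1 TGACG, and TATAAA was not found in this window. Each promoter held 1 GC box. Of all promoters, 13.6% held the TATAAA motif, 20.8% held TGACG and 35.7% held the GC box. The full cyclic AMP response element TGACGTCA, which contains TGACG, stood in none of the entries of the 5 genes and in 1.79% of all promoters. Adra2b held 29 CpG and Adra2c held 7. Adra1b has 2 annotated starts, 1 with 28 CpG and 1 with 3.

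Adrb3 (ENSMUSG00000031489, chromosome 8) encodes the beta-3 receptor of adipocytes. It stood at 0.832, 3.18 and 1.74 FPKM in CRS replicates 1 to 3, against 3.82, 2.10 and 1.58 FPKM in CON replicates 1 to 3. The lowest value was in a CRS mouse and the highest in a CON mouse, but CRS replicate 2 lay above CON replicates 2 and 3, so the groups overlapped. The counting interval was 0.625 to 1.09 FPKM in CRS replicate 1 and 2.81 to 3.58 FPKM in CRS replicate 2. Libraries of 1 group thus differed by more than counting error, and whether this lay in the mice or in the sampling was not tested. The means were 1.92 ± 1.18 FPKM in CRS and 2.50 ± 1.17 FPKM in CON (SD, n = 3 each). The log2 fold change was -0.46 (SE 0.56, 95% interval -1.74 to 0.83, limma adjusted p = 0.9999), and the exact two-sided permutation p was 0.5, where 0.1 is the smallest that 3 against 3 allows. Without CRS replicate 1 the value was 0.01, without CRS replicate 2 it was -0.90 and without CON replicate 1 it was -0.11. Adrb3 shares 839 nt of exon with the antisense gene Gm45470, listed at 0.0614, 0.336 and 0.0104 FPKM in CRS replicates 1 to 3 and 0.0763, 0.0395 and 0.0395 FPKM in CON replicates 1 to 3. No label says whether strand was used in counting, and without it reads of the pair cannot be told apart.

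White adipocyte markers varied between libraries as well. The lipid droplet gene Plin1 was at 1.24, 13.4 and 3.64 FPKM in CRS replicates 1 to 3 and at 5.19, 6.36 and 3.19 FPKM in CON replicates 1 to 3. It was lowest in CRS replicate 1, where Adrb3 was also lowest, but the marker Fabp4 was lowest in CRS replicate 2, at 152.8 FPKM. The mean log2 level of all 8 markers deviated by -0.91 from its mean over the libraries in CRS replicate 1. In CON replicate 1, where Adrb3 was highest, that deviation was 0.0045. All 8 adipocyte markers were detected in every library, and their summed level was 400.4 to 868 FPKM in CRS and 381.5 to 716 FPKM in CON. The endothelial markers, 6 of 6 detected in every library, summed to 9.08 to 30.2 FPKM in CRS and 15.7 to 42.8 FPKM in CON, with CON replicate 1 and CRS replicate 2 highest, as for Adrb3. Skeletal muscle markers, 10 of 10 detected in every library, summed to 492.6 to 3016 FPKM in CRS and 1621 to 14445 FPKM in CON, with the same 2 libraries highest. The part of these cell types in the Adrb3 values was not tested. In bulk tissue, fewer cells of a type and less RNA per cell cannot be told apart.

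Adrb1 (ENSMUSG00000035283, chromosome 19) encodes the beta-1 receptor, which drives heart rate and is also found in other tissues. Its level was 0.313, 0.328 and 0.605 FPKM in CRS replicates 1 to 3, against 0.319, 0.584 and 0.846 FPKM in CON replicates 1 to 3. The highest value was in CON replicate 3, while CON replicate 1 was as low as the lower CRS mice. The means were 0.415 ± 0.165 FPKM in CRS and 0.583 ± 0.264 FPKM in CON, from 15 to 38 fragments per library. The log2 fold change was -0.37 (SE 0.57, 95% interval -1.68 to 0.93, limma adjusted p = 0.9999; exact permutation p = 0.6). Without CON replicate 3 it was -0.10 and without CON replicate 1 it was -0.69.

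**Figure D1:**
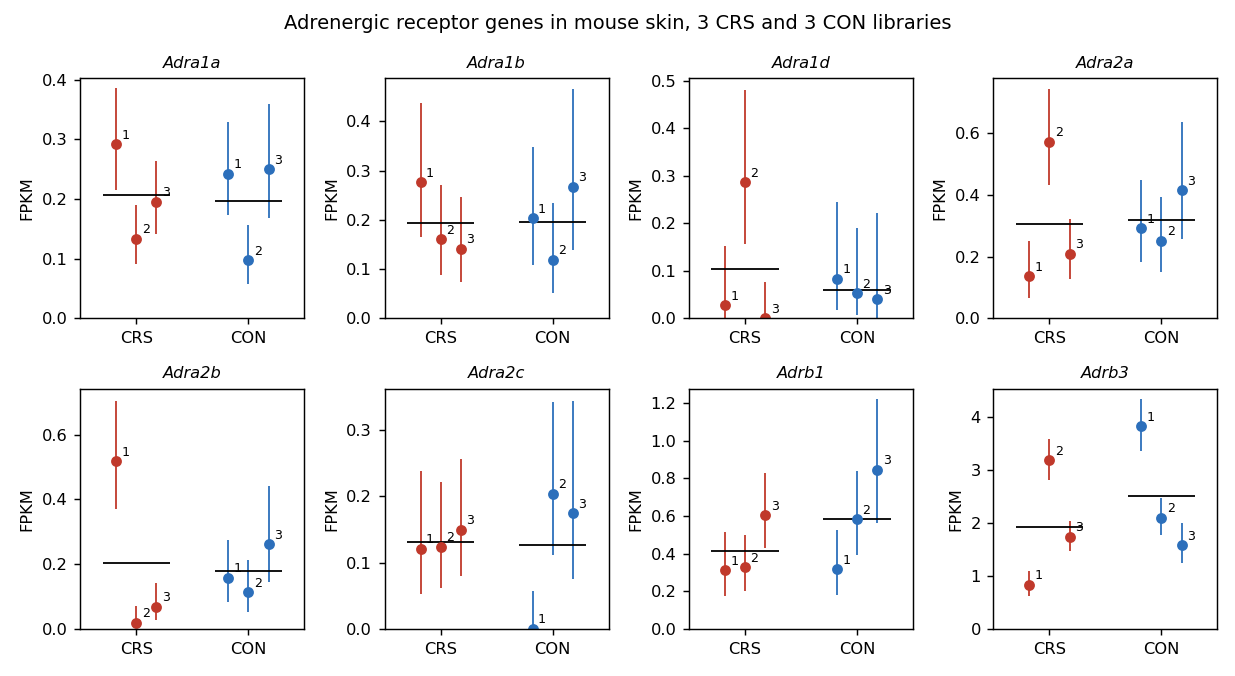
FPKM of each receptor gene in the CRS and CON libraries, with replicate numbers beside the points. Vertical lines are exact 95% Poisson counting intervals and horizontal lines are group means (n = 3 each). CRS and CON points overlap in every panel, and Adrb3 has a scale several times that of the others.

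Of the 3 alpha-2 genes, Adra2a (ENSMUSG00000033717, chromosome 19) encodes the receptor that restrains noradrenaline release at nerve endings and lipolysis in fat cells. It stood at 0.137, 0.573 and 0.209 FPKM in CRS replicates 1 to 3, against 0.292, 0.251 and 0.416 FPKM in CON replicates 1 to 3. The CRS mice held both the lowest and the highest value and enclosed all CON mice. The counting intervals of CRS replicate 1 (0.0656 to 0.252 FPKM) and CRS replicate 2 (0.433 to 0.744 FPKM) did not meet. Its log2 fold change was -0.18 (SE 0.61, 95% interval -1.58 to 1.23, limma adjusted p = 0.9999; exact permutation p = 0.8). It was 0.14 without CRS replicate 1, -0.61 without CRS replicate 2 and -0.02 without CON replicate 3.

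Adra2b (ENSMUSG00000058620, chromosome 2) encodes an alpha-2 receptor of vascular smooth muscle. It stood at 0.518, 0.0194 and 0.0692 FPKM in CRS replicates 1 to 3, from 40, 2 and 7 fragments. In CON replicates 1 to 3 it stood at 0.158, 0.112 and 0.262 FPKM, from 12, 9 and 14 fragments. The CRS mice were the highest and the 2 lowest, a 26.8-fold range over the libraries. Its log2 fold change was -0.22 (SE 0.74, 95% interval -1.92 to 1.47, limma adjusted p = 0.9999; exact permutation p = 0.8), and it was 0.26 without CRS replicate 2 and -0.93 without CRS replicate 1. Without CON replicate 1 it was -0.26.

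The level of Adra2b moved with that of the olfactory receptor genes. CRS replicate 1 was highest and CRS replicate 2 lowest in both, and Adra2b stayed between 3.15 and 6.21 times the olfactory mean in the 6 libraries. For Adra2a that ratio ran from 1.62 to 100.01, for Adrb1 from 3.70 to 57.2 and for Adrb3 from 9.83 to 555. For Adra1a it ran from 3.45 to 23.3 and for Adra1b from 3.27 to 28.1, with both upper ends in CRS replicate 2. Outside that library the ratio reached only 8.91 for Adra1a and 6.42 for Adra1b. Both genes also had their highest FPKM in CRS replicate 1. Adra2b thus differed from these 2 genes mainly in CRS replicate 2, where it rested on 2 fragments (counting interval 0.00235 to 0.07 FPKM). For Adra2c and Adra1d, each with 0 fragments in 1 library, the ratio ran from 0 to 21.7 and from 0 to 50.05. The olfactory list was chosen after the values were seen, and its part in the Adra2b values was not tested.

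**Figure D2:**
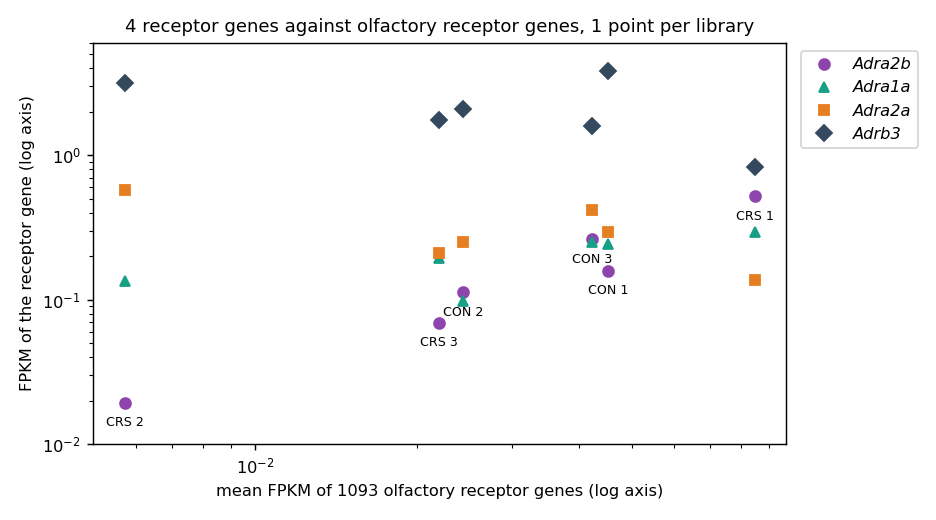
FPKM of Adra2b, Adra1a, Adra2a and Adrb3 against the mean FPKM of 1093 olfactory receptor genes, 1 point per library, both axes on a log scale. Adra2b, whose points carry the library names, climbs with the olfactory mean, while Adrb3 and Adra2a are lowest in CRS replicate 1, where the olfactory mean is highest.

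Adra2c (ENSMUSG00000045318, chromosome 5), the remaining alpha-2 gene, is known in mouse for cold-induced constriction of skin vessels. It stood at 0.121, 0.124 and 0.150 FPKM in CRS replicates 1 to 3, against 0, 0.204 and 0.175 FPKM in CON replicates 1 to 3. The CRS mice were close to each other and lay between the CON mice. CON replicate 1 held 0 fragments, for which the exact interval reaches 0.0566 FPKM and a limit of 3 fragments 0.0461 FPKM. For CRS against CON the log2 fold change was 0.19 (SE 0.63, 95% interval -1.26 to 1.64, limma adjusted p = 0.9999; exact permutation p = 1), and it was -0.32 without CON replicate 1. With a pseudocount of 0.01 it was 0.94, and with voom on the recovered fragments 1.05. Dermal fibroblast markers, 6 of 6 detected, were also lowest in CON replicate 1, at a summed 233.9 FPKM, against 803 to 1274 FPKM in CRS and 1215 and 1277 FPKM in the other CON mice. Immune cell markers were lowest in CON replicate 1 too, at a summed 103.2 FPKM, against 189.9 to 295.4 FPKM in CRS. The other CON mice were at 312.1 and 174.1 FPKM. The part of these cell types in the Adra2c value was not tested.

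Of the 3 alpha-1 genes, Adra1a (ENSMUSG00000045875, chromosome 14) encodes a receptor of smooth muscle contraction. It stood at 0.292, 0.134 and 0.195 FPKM in CRS replicates 1 to 3, against 0.242, 0.0977 and 0.250 FPKM in CON replicates 1 to 3. Replicate 2 was the lowest mouse of each group, and the groups overlapped almost fully. The log2 fold change was 0.06 (SE 0.58, 95% interval -1.25 to 1.38, limma adjusted p = 0.9999; exact permutation p = 0.9), and it came to 0.19 when CON replicate 1 was left out and -0.13 when CRS replicate 1 was.

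Adra1b (ENSMUSG00000050541, chromosome 11) encodes the alpha-1 receptor best known from liver, heart and vessels. It stood at 0.277, 0.161 and 0.141 FPKM in CRS replicates 1 to 3, against 0.203, 0.119 and 0.267 FPKM in CON replicates 1 to 3. The group means differed least here, at 0.193 ± 0.0734 FPKM in CRS and 0.196 ± 0.0744 FPKM in CON. On the log2 scale CRS differed from CON by -0.01 (SE 0.56, 95% interval -1.30 to 1.28, limma adjusted p = 0.9999; exact permutation p = 1), and by 0.02 without CON replicate 1. Adra1b was the 1 gene of the 8 whose 6 counting intervals all overlapped, from 8 to 18 fragments. Differences between single mice were not tested.

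Adra1d (ENSMUSG00000027335, chromosome 2) encodes the alpha-1 receptor of large arteries. It stood at 0.0274, 0.287 and 0 FPKM in CRS replicates 1 to 3, from 1, 14 and 0 fragments, against 0.0836, 0.0528 and 0.0396 FPKM in CON replicates 1 to 3, from 3, 2 and 1 fragments. CRS replicate 2 was highest, with a counting interval of 0.157 to 0.481 FPKM. In CRS replicate 3, with 0 fragments, the exact interval reached 0.0771 FPKM and a limit of 3 fragments 0.0627 FPKM. Smooth muscle and mural cell markers, 10 of 10 detected, averaged 0.76 log2 units above their mean in CRS replicate 2, the highest of the 6 libraries. Keratinocyte markers (0.77) and white adipocyte markers (0.67) were highest in that library too, and the smooth muscle actin gene Acta2 was at 62.3 FPKM there, against 91.1 and 82.9 FPKM in the other CRS mice. The smooth muscle and mural cell markers summed to 116.3 to 189.4 FPKM in CRS and 143.3 to 313.5 FPKM in CON, where CON replicate 1 was highest. Most of that highest sum was Des, at 221.5 FPKM in CON replicate 1 against 5.14 to 51.0 FPKM elsewhere. Acta2 was lowest in CON replicate 1, at 52.4 FPKM, so the sum does not rank the libraries by smooth muscle. The part of these cell types in the Adra1d value was not tested. Adra1d shares 147 nt of exon with the antisense gene Gm14285, listed at 0 in every library. The gene was under the filter for testing. Fitted with no filter, limma put it at a log2 difference of 0.11 (SE 0.55, adjusted p = 0.9995; exact permutation p = 1).

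**Figure D3:**
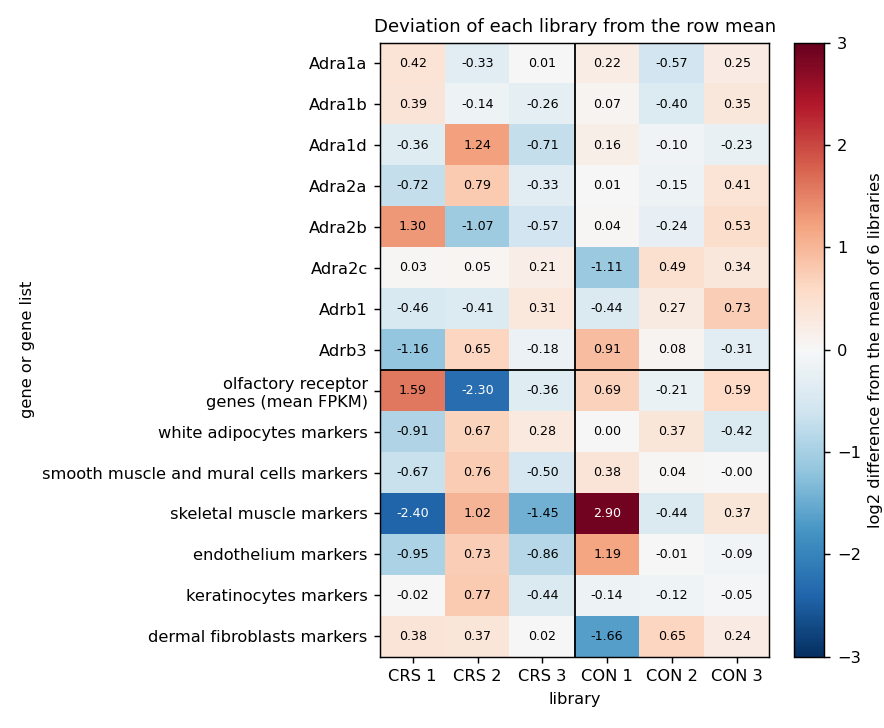
Log2 deviation of each library from the mean of the 6, for the 8 receptor genes (log2(FPKM + 0.1)), the mean of the olfactory receptor genes and the mean log2 level of 6 marker lists. Columns are the 3 CRS and then the 3 CON libraries. Red is above the row mean and blue below: Adrb3 is at -1.16 in CRS replicate 1 and at 0.91 in CON replicate 1, and Adra2b is at 1.30 in CRS replicate 1.

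Across the genes, the order of levels was firm only at the top. Adrb3 lay above Adrb1 in 6 of 6 libraries, by 1.71 ± 1.205 FPKM (SD of the 6 differences). Adrb1 lay above Adra2a in 5 of 6 (0.186 ± 0.260 FPKM) and Adra2a above Adra1a in 5 of 6 (0.111 ± 0.198 FPKM), with differences smaller than their spread. Adra1a and Adra1b could not be ranked, each being higher in 3 of 6 libraries. Adra1b lay above Adra2b in 5 of 6 but by only 0.0046 ± 0.131 FPKM on average. Adra2b and Adra2c were each higher in 3 of 6, and Adra2c lay above Adra1d in 4 of 6. The order also rests on the exon lengths. Adra1a held 17 to 49 fragments per library over 8728 nt, the merged length of all its annotated exons. Adrb1 held 15 to 38 over 2491 nt and Adra2a 10 to 56 over 3801 nt.

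On the log2 scale, the 95% intervals of the 7 tested genes had upper ends of 0.83 to 1.64 and lower ends of -1.92 to -1.25, so sizeable changes in either direction lay within them. By unadjusted p under 0.05, 0 of the 7 passed, beside 0.919% of all genes that passed as higher and 1.63% that passed as lower. That excess of lower genes depended on scaling: 421 genes passed as higher and 184 as lower with median-ratio scaling, and 490 and 322 with quantile normalization. Among the 7 fold changes, 5 were under 0, against 67.8% of all genes, whose median was -0.20. Relative to that median, Adrb3 was at -0.26, Adrb1 at -0.17, Adra2a at 0.02, Adra2b at -0.03, Adra1a at 0.26, Adra1b at 0.18 and Adra2c at 0.39.

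**Figure D4:**
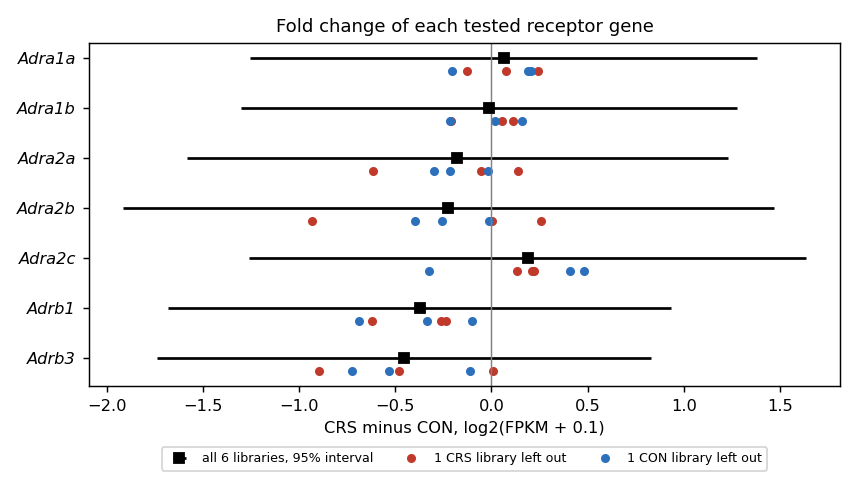
CRS minus CON difference in log2(FPKM + 0.1) for the 7 tested receptor genes. Squares with lines are the fit to all 6 libraries and its 95% interval, and points are fits with 1 CRS or 1 CON library left out. All intervals cross 0, and the points of 6 genes lie on both sides of 0, while those of Adrb1 stay between -0.69 and -0.10.

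The signalling pathway around the receptors was followed through 8 lists with 77 genes, of which 73 were tested. With limma, 0 passed by adjusted and 1 by unadjusted p under 0.05, and in 3, or 4.11%, CRS and CON did not overlap. Of all genes tested, 6.84% did not overlap, and 0.919% and 1.63% passed as higher and lower by unadjusted p, so these counts lie near or under the background. Of the 73 fold changes 50, or 68.5%, were under 0, and their median was -0.18, against 67.8% and -0.20 for all genes. This balance depended on the scaling of the libraries: 31 of the 73 were under 0 with median-ratio scaling and 36 with quantile normalization, with medians of 0.05 and 0.004.

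For catecholamine synthesis, 3 of 5 genes were tested. Gch1, which makes the cofactor of tyrosine hydroxylase, was at 1.74, 1.39 and 1.41 FPKM in CRS replicates 1 to 3, against 1.06, 1.12 and 1.17 FPKM in CON replicates 1 to 3. The 3 CRS mice lay above the 3 CON mice, with a log2 fold change of 0.41 (SE 0.40, limma adjusted p = 0.9999). Th, tyrosine hydroxylase itself, stood at 0.101 to 0.329 FPKM in CRS and 0.127 to 0.761 FPKM in CON. Dbh, which makes noradrenaline, was at 0.0144 to 0.0579 FPKM in CRS and 0 to 0.028 FPKM in CON. Of the 9 genes of transport and breakdown, 8 were tested. Slc18a2, the vesicular monoamine transporter, stood at a log2 fold change of -0.50 (SE 0.40, limma adjusted p = 0.9999).

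Downstream of beta receptors, 17 genes of Gs, adenylyl cyclases and protein kinase A had a median log2 fold change of -0.25, which was -0.04 with median-ratio scaling and -0.12 with quantile normalization. Creb1, the transcription factor that protein kinase A phosphorylates, was at 3.10, 5.34 and 2.55 FPKM in CRS replicates 1 to 3, against 7.67, 4.63 and 8.68 FPKM in CON replicates 1 to 3. CRS replicate 2 lay above CON replicate 2, so the groups overlapped. With limma, CRS minus CON came to -0.94 in log2 (SE 0.41), with an unadjusted p of 0.0484 and an adjusted p of 0.9999. Prkar2a, a regulatory subunit of protein kinase A, had a log2 fold change of -0.64 (SE 0.44). Among the 11 targets of cyclic AMP or beta receptors, Fos, an immediate early gene, was at 7.24 to 8.15 FPKM in CRS and 4.21 to 6.44 FPKM in CON, with a log2 fold change of 0.51 (SE 0.31, limma adjusted p = 0.9999) and no overlap. Nr4a1, an orphan nuclear receptor gene that cyclic AMP induces, had a log2 fold change of -0.67 (SE 0.56). Ucp1, the uncoupling protein of thermogenic fat, ran from 0.0950 to 1.53 FPKM in CRS and from 0.291 to 1.06 FPKM in CON.

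Downstream of alpha receptors, all 5 Gi and Go subunit genes had fold changes under 0, with a median of -0.45, and 4 of the 5 were under 0 with median-ratio scaling and with quantile normalization. Gnai2, a Gi subunit, stood at a log2 difference of -0.48 (SE 0.48), and Gnaz, a relative of it, at -0.54 (SE 0.63). The 11 genes of Gq, phospholipase C beta and calcium release had 10 fold changes under 0 and a median of -0.22, but 6 under 0 with median-ratio scaling and 7 with quantile normalization. Of all genes tested, 67.8% were under 0 in the original fit, with a median of -0.20. The median of all genes was 0.004 with median-ratio scaling and -0.02 with quantile normalization. Gna11 and Gnaq, which encode Gq family subunits, stood at log2 differences of -0.50 (SE 0.34) and -0.52 (SE 0.41). Among the 9 receptor kinases, arrestins and Rgs genes the median was -0.11 (0.12 with median-ratio scaling), with the receptor kinases Grk6 at -0.30 (SE 0.38) and Grk2 at -0.19 (SE 0.41). Among the 9 tested cyclic AMP phosphodiesterases the median was -0.02 (0.16 with median-ratio scaling), with Pde7a at -0.43 (SE 0.43) and Pde8b at -0.23 (SE 0.53). All of these had a limma adjusted p of 0.9999.

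The genes whose log2 values over the 6 libraries were most like those of each receptor gene were sought among 11126 or 11127 protein-coding genes with a mean of 1 FPKM or more. For Adrb3 they were Acadm (Pearson r = 0.995), Eepd1 (r = 0.993) and Qtrt1 (r = 0.993). Acadm, a dehydrogenase of fatty acid oxidation, stood at 11.5, 20.4 and 15.5 FPKM in CRS replicates 1 to 3 and at 23.5, 17.8 and 15.1 FPKM in CON replicates 1 to 3. For Adrb1 they were Ube2m (r = 0.983), Psmd13 (r = 0.976) and Hspbp1 (r = 0.950). For Adra2a they were Zfand5 (r = 0.990), Samd8 (r = 0.988) and Cand1 (r = 0.988), for Adra2b Ift81 (r = 0.972), S100a4 (r = 0.951) and Alyref2 (r = 0.948), and for Adra2c Nectin3 (r = 0.997), Cdc37 (r = 0.995) and Mapk3 (r = 0.994). For Adra1a they were Lsmem1 (r = 0.951), Hist1h4k (r = 0.890) and Ly6g5b (r = 0.884), and for Adra1b Mgll (r = 0.935), Mroh2a (r = 0.918) and Ikzf2 (r = 0.917). These are the highest of many values over 6 libraries that share depth and tissue makeup, and are a description.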

How the data were processed

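Total RNA of skin was sequenced in 6 libraries, 3 CRS and 3 CON. The authors aligned reads with HISAT2 to GRCm39, per the submitters' processing notes, and deposited FPKM values, 1 file per library. Counter, annotation, strand and versions are not given in the sources used here. Symbols and the merged length of each gene's exons were taken from GENCODE M21 (GRCm38), which held 54079 of 54146 IDs. Deposited FPKM times that length came in whole steps: 98.1% to 98.3% of values up to 100 fragments lay within 0.05 of a whole number, which gave depth and fragments. These lengths belong to GRCm38 while the processing notes name GRCm39, and this difference was not resolved. For 6 of the 8 receptor genes all values were whole. For Adra2a and Adrb1 the M21 length did not give whole numbers in all libraries. The lengths used for their fragments, 3801 and 2491 nt, were taken at the shortest fit found. Longer lengths that may also fit were not examined, and would give more fragments and narrower counting intervals.

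All 28389 genes averaging 0.1 FPKM or more were fitted as log2(FPKM + 0.1) with limma 3.58.1 (R 4.3.3), with a mean-variance trend, two-sided, and Benjamini-Hochberg adjustment over all of them. Because of the added 0.1, fold changes of low genes come out too small. Only the group sizes link libraries to mice, so p-values measure the spread between these libraries. Exact permutation tests used the same log2 values. The fit was also run on simulated data with independent noise and shifts larger than the receptor fold changes, so that run says nothing on changes of their size. Named genes were the 8 receptors, the 2 genes of lowest p in each pathway list, markers beside the results they move with, and the 3 most alike genes per receptor, and Dbh, Ucp1, Plin1, Xist, Ddx3y, Trp63, Chrna3, Prph, Gnas and the olfactory genes were added after their values were seen. A gene that this rule names is not reported here. The members and lists were chosen with earlier results of these data known. Figures used Python 3.11.15 and matplotlib 3.10.9.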

Additional observations from a re-analysis of the deposited data

How the results depend on the processing

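Under every alternative run, limma called 0 genes higher and 0 lower at an adjusted p under 0.05, voom on the recovered fragments included, and 0 at a threshold of 0.1 on the original fit. At an unadjusted p under 0.05 the original fit held 261 higher and 462 lower genes, against 421 and 184 with median-ratio scaling, 490 and 322 with quantile normalization, 1109 and 6525 with array weights and 707 and 4148 without CRS replicate 2. With the scalings tried, Gch1, Fos and Creb1 kept their signs. The smallest adjusted p of any gene was 0.0522 with array weights, 0.192 without CRS replicate 2 and 0.9999 in the original fit. The median fold change of all genes was -0.20 and lay at 0.004 with median-ratio scaling and -0.02 with quantile normalization. Several signs turned, and the causes were not tested. With median-ratio scaling Adra1b was at 0.14, and with quantile normalization Adra1b was at 0.19 and Adra2b at 0.11. With a pseudocount of 1 Adra2b was at 0.0082. Without CRS replicate 2 and CON replicate 1 together, Adra1b was at 0.088, Adra2b at 0.22 and Adra2c at -0.30. With each library left out in turn, the log2 fold change ran from -0.21 to 0.24 for Adra1a, -0.22 to 0.16 for Adra1b, -0.61 to 0.14 for Adra2a, -0.93 to 0.26 for Adra2b, -0.32 to 0.48 for Adra2c, -0.69 to -0.10 for Adrb1 and -0.90 to 0.010 for Adrb3. Adrb1 kept its sign under all 16 alternatives but came to -0.03 with array weights. With voom, Adra2b was at -0.90 and Adra2c at 1.05, and with a pseudocount of 0.01 at -0.73 and 0.94, both resting on few fragments. By median level instead of mean, 6 of the 8 genes held their rank, Adra2b and Adra2c changing places. Replicate numbers did not pair the libraries: deviations of equal numbers correlated at -0.12, 0.06 and 0.09. With the replicate block, 0 genes passed, and Adrb3 stayed at -0.46 (SE 0.64, limma adjusted p = 1).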

Other observations

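Markers of sympathetic neurons were low, as 8 genes summing to 5.74 to 10.7 FPKM in CRS and 11.3 to 12.8 FPKM in CON. Most of that sum was Npy, whose peptide is stored with noradrenaline, at 7.99, 3.16 and 8.41 FPKM in CRS replicates 1 to 3, against 9.25, 9.31 and 11.2 FPKM in CON replicates 1 to 3. CRS and CON did not overlap, with a log2 fold change of -0.71 (SE 0.42, limma adjusted p = 0.9999). Of the 8 genes, 3 did not overlap, against 6.84% of all genes tested, and they went in both directions. Whether these RNA levels follow the nerve supply of the skin was not tested. Slc6a2, the noradrenaline transporter, was at 1.36, 1.38 and 0.568 FPKM in CRS replicates 1 to 3 and at 0.875, 0.965 and 0.790 FPKM in CON replicates 1 to 3. Chrna3, a nicotinic receptor subunit gene of autonomic ganglia picked after its values were seen, was at 0.672, 0.746 and 1.07 FPKM in CRS replicates 1 to 3, against 0.181, 0.610 and 0.243 FPKM in CON replicates 1 to 3, without overlap and with a log2 fold change of 1.16 (SE 0.57, limma adjusted p = 0.9999). Prph, which encodes the neuronal filament peripherin, was the third, at 0.104, 0.0583 and 0.0794 FPKM in CRS replicates 1 to 3, against 0.106, 0.201 and 0.226 FPKM in CON replicates 1 to 3 (log2 fold change -0.60, SE 0.55, limma adjusted p = 0.9999).

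The Gs subunit gene Gnas, looked at after its values were seen, was listed at 0.114 to 0.327 FPKM in CRS and 0.148 to 0.218 FPKM in CON. Its locus holds overlapping transcripts of both strands, and no label says whether strand was used in counting.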
